A study of Mus musculus with 11 samples.

Results

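The extracellular matrix genes described here are 41 genes, chosen by gene symbol from a table of 54532 genes: 5 chains of fibrillar collagens, 3 chains of collagen VI, 12 basement membrane genes, 5 adhesive and elastic fibre glycoproteins, 4 genes for SPARC and small leucine-rich proteoglycans, 6 genes for collagen folding and cross-linking, and 6 genes for proteases, their inhibitors and the ligand Tgfb1. Each symbol matched 1 row, and all 41 passed the filter on low counts that left 14113 genes for testing. Polyadenylated RNA of whole pancreas was sequenced from C57BL/6JRj mice, a wild-type inbred strain, and the titles number the mice, 1 to a library. Animals of 7 weeks are called young and those of 18 months aged. Some were left untreated and the others received caerulein, a cholecystokinin analogue that overstimulates acinar cells and is used to model acute pancreatitis. Caerulein was given intraperitoneally at 125 µg/kg in 4 hourly injections, and the treated libraries carry the label 5H. There were 3 young untreated, 2 aged untreated (mice 2 and 3), 3 young caerulein and 3 aged caerulein libraries. No transgene is named for any group.

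Fibrillar collagens form the interstitial fibres of the pancreas and are made mainly by stellate cells and fibroblasts. Basement membranes are thin sheets of collagen IV, laminins, nidogens and the proteoglycan perlecan that lie under acini and ducts and around vessels. Inside the cell, the chaperone encoded by Serpinh1 (HSP47) and the prolyl and lysyl hydroxylases prepare procollagen, lysyl oxidases cross-link it outside, and matrix metalloproteinases and their TIMP inhibitors set its turnover.

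Levels below are TMM-scaled CPM (read counts relative to library size), given in the order of the mouse numbers within a group. A fold change is a log2 value ± SE from edgeR, in 1 model of all 11 libraries, and a gene was called where its Benjamini-Hochberg adjusted p over all genes tested was below 0.05. Total counts per library ran from 14223190 to 26537091. Young untreated mouse 2 stood apart: its summed level of 10 lymphoid and lymph node markers was 164 CPM against 0.393 and 0.345 in mice 1 and 3, that of 8 adipocyte markers was 277 against 19.8 and 4.60, and that of 9 macrophage markers was 344 against 44.5 and 59.0. Its summed acinar markers stood at 372488 CPM against 601173 and 610235. Counts of members called are therefore given with and without this library, and 13567 genes were tested without it.

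Caerulein was followed by changes in both directions among the members, and several roles held both, as the plot of fold changes by role shows. In the young mice 9 members were higher and 12 lower, which is 22.0% and 29.3% of the 41, where 27.5% of all genes tested were called higher and 24.7% lower. In the aged mice 10 were higher and 4 lower, 24.4% and 9.76% of the members, against 27% and 21.2% of all genes. Called shares of the young members, and the higher share of the aged members, thus lay near those of all genes. Without young untreated mouse 2 the counts were 11 higher and 13 lower at 7 weeks, where 30.8% and 26.8% of all genes were called, and 12 and 8 at 18 months, where 30.7% and 27.6% were. Treated and untreated values did not overlap for 9 members higher and 12 lower at 7 weeks, where 30.7% and 26.5% of all genes did so, and for 13 and 8 at 18 months, where 37.8% and 33.4% did. Each member called with all libraries was also called in the same direction without young untreated mouse 2. Scaling by library totals alone shifted the all-gene median by 0.494 at 7 weeks and 0.619 at 18 months, and the members split 9 higher to 2 lower and 12 to 0. All genes split 5314 to 1269 and 5451 to 1074 under that scaling, against 3888 to 3488 and 3806 to 2998 with TMM.

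**Figure D1:**
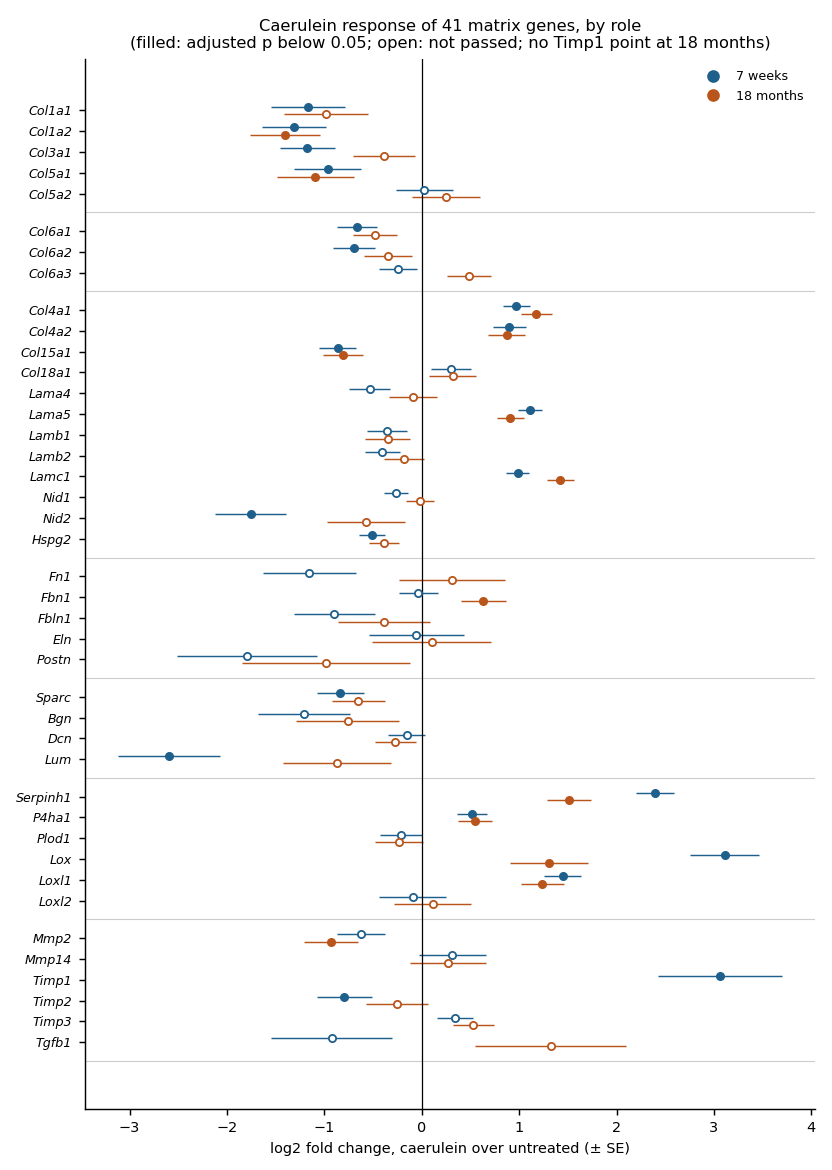
Log2 fold change ± SE of caerulein over untreated (x axis) for each of the 41 genes (y axis, grouped by role), at 7 weeks (blue) and 18 months (orange); filled points have an adjusted p below 0.05. The collagen I chains and Col5a1 lie left of 0, Col4a1, Col4a2, Lama5, Lamc1 and the folding and cross-linking genes Serpinh1, P4ha1, Lox and Loxl1 lie right of 0 at both ages, and Timp1 has no point at 18 months because the aged untreated libraries held no read.

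The chains of collagens I, III and V, the main fibrillar collagens, mostly fell. At 7 weeks 4 of the 5 were lower (Col1a1, Col1a2, Col3a1 and Col5a1) with a median of -1.17, where the median of all genes was -0.06. At 18 months Col1a2 and Col5a1 were lower and the median was -0.98, where all genes had 0.07. With young untreated mouse 2 left out, 4 and 3 of the 5 were lower. Library totals alone left both medians negative, at -0.69 and -0.37, with none of the 5 called. In whole tissue, fewer cells of a type and less RNA per cell cannot be told apart.

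Col1a1 (chr11:94936224-94953042 on mm10, plus strand), which encodes the alpha 1 chain of collagen I, had 25.97, 44.6 and 26.9 in the young untreated mice, 17.9, 14.6 and 10.8 in the young caerulein mice, 23.4 and 13.1 in the aged untreated mice and 9.24, 4.24 and 14.04 in the aged caerulein mice. Every young caerulein value lay below every young untreated value, while the aged groups overlapped. Its fold change was -1.17 ± 0.38 at 7 weeks (edgeR adjusted p = 0.024) and -0.98 ± 0.43 at 18 months (edgeR adjusted p = 0.0828). Without young untreated mouse 2 the aged difference was called as well, at -1.04 ± 0.36 (edgeR adjusted p = 0.0231). The young call was lost without young caerulein mouse 2 or mouse 3 (edgeR adjusted p = 0.0624 and 0.0897).

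Its partner Col1a2 (chr6:4504814-4541544, plus strand) had 35.6, 57.6 and 39.9 in the young untreated mice, 20.7, 19.4 and 13.5 in the young caerulein mice, 34.3 and 20.7 in the aged untreated mice and 9.58, 5.99 and 15.6 in the aged caerulein mice. Treated and untreated values did not overlap at either age. The fold change was -1.31 ± 0.32 at 7 weeks (edgeR adjusted p = 0.00584) and -1.40 ± 0.36 at 18 months (edgeR adjusted p = 0.00782), the aged call being lost without aged untreated mouse 2 (adjusted p = 0.119). Col3a1 (chr1:45311538-45349706, plus strand), the single chain of collagen III, had 59.02, 76.7 and 78.4 in the young untreated mice, 31.5, 38.6 and 24.6 in the young caerulein mice, 46.4 and 26.1 in the aged untreated mice and 25.4, 18.7 and 38.7 in the aged caerulein mice. Its young groups stood apart and its aged groups overlapped, with fold changes of -1.18 ± 0.28 (edgeR adjusted p = 0.00513) and -0.39 ± 0.32 (edgeR adjusted p = 0.341). The difference between these responses, 0.79 ± 0.43, was not called (edgeR adjusted p = 0.474).

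Collagen V chains, which seed the thin fibrils of collagen I, went separate ways. Col5a1 had 8.94, 10.2 and 11.05 in the young untreated mice, 5.14, 6.16 and 4.11 in the young caerulein mice, 7.23 and 5.42 in the aged untreated mice and 1.99, 1.75 and 5.22 in the aged caerulein mice, without overlap at either age. It fell by 0.97 ± 0.34 on the log2 scale at 7 weeks (edgeR adjusted p = 0.0353) and by 1.09 ± 0.40 at 18 months (edgeR adjusted p = 0.0401). Both calls were near the threshold: the young one was lost without young untreated mouse 3, aged untreated mouse 2 or 3, or young caerulein mouse 1 or 3, and the aged one without any 1 of aged untreated mice 2 and 3, young caerulein mouse 1 and aged caerulein mice 1 and 2. Col5a2 had 6.01, 8.75 and 7.48 in the young untreated mice, 8.80, 8.10 and 5.77 in the young caerulein mice, 5.29 and 3.36 in the aged untreated mice and 4.81, 3.22 and 7.27 in the aged caerulein mice, with overlapping groups at both ages and fold changes of 0.03 ± 0.29 and 0.25 ± 0.35 (edgeR adjusted p = 0.949 and 0.592).

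Markers of the cells that make these collagens were read beside them. The summed level of 15 stellate cell and fibroblast markers ran from 74.8 to 178 CPM in the young untreated mice, 44.9 to 74.9 in the young caerulein mice, 58.4 to 70.9 in the aged untreated mice and 56.3 to 74.6 in the aged caerulein mice. Of 13 such markers tested, 2 were higher and 5 lower at 7 weeks, and 2 higher and 1 lower at 18 months. Of all genes tested, 27.5% were called higher and 24.7% lower at 7 weeks, and 27% and 21.2% at 18 months. Without young untreated mouse 2 the markers were 2 and 3, and 2 and 1. The shares of all genes were then 30.8% and 26.8%, and 30.7% and 27.6%. Lrat and Ngfr, stellate cell genes in the marker list, had no read in 9 and 5 of the 11 libraries. All 8 acinar markers fell at both ages, their sum going from 372488 to 610235 CPM down to 246504 to 283898 in the young mice, and from 534442 to 658191 down to 248156 to 311645 in the aged mice. The part of these markers in the collagen result was not tested.

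**Figure D2:**
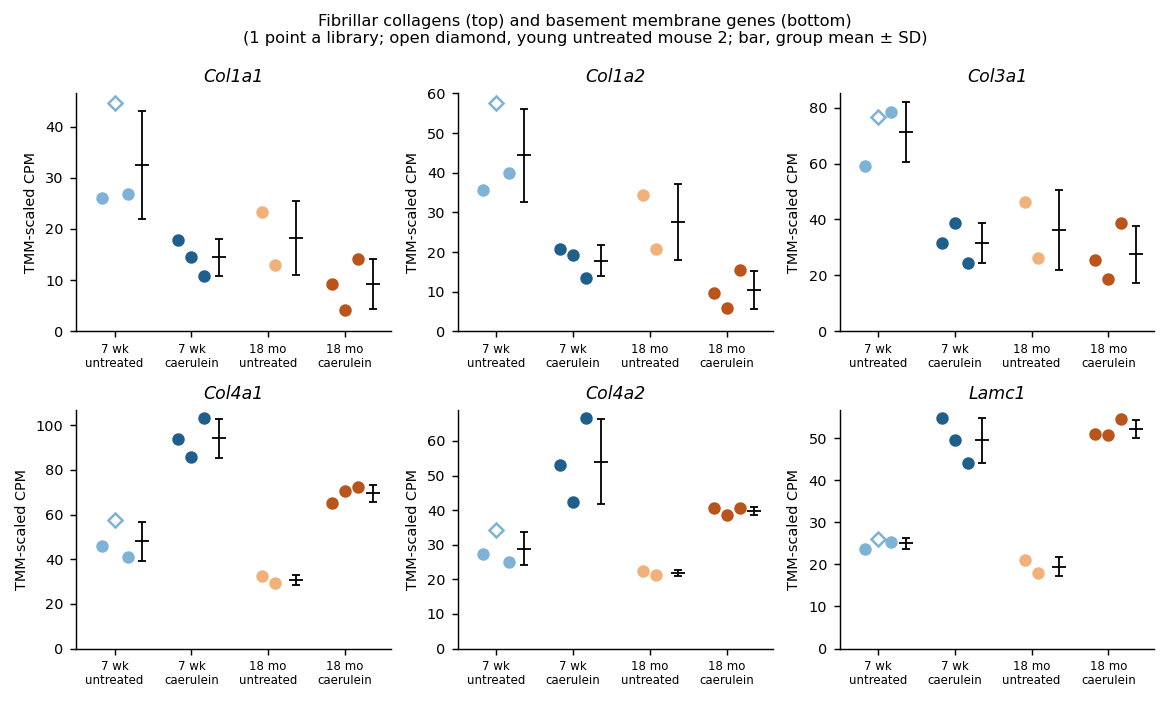
TMM-scaled CPM (y axis) in each library of the 4 groups (x axis) for Col1a1, Col1a2 and Col3a1 above and Col4a1, Col4a2 and Lamc1 below; bars give the group mean ± SD and the open diamond is young untreated mouse 2. Young caerulein values of the fibrillar chains lie under all young untreated values, while those of the 3 basement membrane genes lie above the untreated values of the same age.

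Collagen VI, a beaded microfibril that links cells to the interstitial matrix, had 2 of 3 chains lower at 7 weeks and none called at 18 months with all libraries. Without young untreated mouse 2 the same number was lower at 7 weeks and Col6a1 was lower at 18 months (-0.55 ± 0.22, edgeR adjusted p = 0.0427). Both calls at 7 weeks were lost with library totals alone (-0.16 and -0.17). Col6a1 had 19.4, 21.4 and 23.8 in the young untreated mice, 15.2, 14.1 and 11.4 in the young caerulein mice, 16.6 and 14.8 in the aged untreated mice and 9.66, 8.63 and 15.4 in the aged caerulein mice, and Col6a2 had 20.1, 18.02 and 22.8 in the young untreated mice, 14.7, 12.3 and 10.6 in the young caerulein mice, 18.7 and 12.5 in the aged untreated mice and 10.1, 10.2 and 16.3 in the aged caerulein mice. For both chains the young groups stood apart and the aged groups overlapped. Col6a1 changed by -0.67 ± 0.20 at 7 weeks (edgeR adjusted p = 0.0168), a value that became 0.063 with library totals alone and young untreated mouse 2 left out, and Col6a2 by -0.69 ± 0.22 (edgeR adjusted p = 0.0201). The Col6a1 call was lost without young caerulein mouse 3 (adjusted p = 0.0689), and the Col6a2 call without young untreated mouse 3 or young caerulein mouse 2 or 3 (adjusted p = 0.0563, 0.0564 and 0.0783). Col6a3 had 11.4, 12.03 and 11.2 in the young untreated mice, 11.6, 9.36 and 8.16 in the young caerulein mice, 7.39 and 8.45 in the aged untreated mice and 9.47, 9.11 and 14.9 in the aged caerulein mice. Its young groups overlapped and its aged caerulein values all lay above the aged untreated ones, yet neither fold change, -0.25 ± 0.20 and 0.49 ± 0.23, was called (edgeR adjusted p = 0.306 and 0.101).

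The basement membrane genes split. Col4a1, Col4a2, Lama5 and Lamc1 rose at both ages, and each was called without young untreated mouse 2 as well. Col15a1, Nid2 and Hspg2 fell at 7 weeks and Col15a1 also at 18 months, so the medians of the 12 genes, -0.31 and -0.06, lay between the 2 sets. Without that mouse 4 were higher and 4 lower at 7 weeks, and 4 and 2 at 18 months. Of all genes tested, 27.5% were called higher and 24.7% lower at 7 weeks, and 27% and 21.2% at 18 months. Library totals alone also called 4 of the 12 higher at each age. That scaling moves changes upward and called 5314 and 5451 of all 14113 genes higher, so it is no check on the rises. Under it Col15a1 lost its call at both ages and Hspg2 its call at 7 weeks. Summed endothelial markers (12 genes) ran from 94.1 to 196 CPM in the young untreated, 74.7 to 131 in the young caerulein, 106 to 123 in the aged untreated and 82.6 to 96.9 in the aged caerulein mice, and summed mural cell markers (10 genes) from 28.3 to 75.8, 19.4 to 34.3, 24.3 to 26.5 and 15.5 to 23.6. Their part in the result was not tested.

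Col4a1 and Col4a2 encode the chains of the common collagen IV network and lie head to head on chromosome 8, Col4a1 on the minus strand (chr8:11198423-11312826) and Col4a2 on the plus strand (chr8:11312805-11449287). Their annotated exons overlap by 22 bases. Since the strand setting of the counting is not given in the sources used here, reads from that stretch cannot be told apart. Col4a1 had 45.8, 57.7 and 40.9 in the young untreated mice, 93.7, 85.8 and 103 in the young caerulein mice, 32.3 and 29.2 in the aged untreated mice and 65.4, 70.7 and 72.4 in the aged caerulein mice, and every caerulein value exceeded every untreated value. It rose by 0.97 ± 0.14 on the log2 scale at 7 weeks (edgeR adjusted p = 0.00016) and by 1.18 ± 0.16 at 18 months (edgeR adjusted p = 0.00013).

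Col4a2 had 27.3, 34.3 and 25.03 in the young untreated mice, 52.98, 42.2 and 66.7 in the young caerulein mice, 22.4 and 21.2 in the aged untreated mice and 40.5, 38.5 and 40.5 in the aged caerulein mice. Again no treated value fell among the untreated values of its age, and the rise was 0.90 ± 0.17 at 7 weeks (edgeR adjusted p = 0.001) and 0.87 ± 0.19 at 18 months (edgeR adjusted p = 0.00317). The ratio of Col4a1 to Col4a2, each per kilobase of gene length, stayed within 1.22 and 1.80 over the 11 libraries.

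Laminins are cross-shaped trimers of an alpha, a beta and a gamma chain. Lama5 (chr2:180176373-180225859, minus strand), an alpha chain of epithelial and vascular basement membranes, had 17.1, 17.4 and 16.97 in the young untreated mice, 38.3, 36.1 and 36.7 in the young caerulein mice, 22.3 and 22.96 in the aged untreated mice and 44.9, 48.00 and 34.7 in the aged caerulein mice. Each treated library stood above all untreated libraries, with a rise of 1.11 ± 0.12 at 7 weeks (edgeR adjusted p = 2.4e-05) and 0.91 ± 0.14 at 18 months (edgeR adjusted p = 0.00029). Lamc1 (chr1:153218922-153332786, minus strand), the common gamma chain, had 23.7, 26.1 and 25.3 in the young untreated mice, 54.8, 49.6 and 44.1 in the young caerulein mice, 21.1 and 17.9 in the aged untreated mice and 51.1, 50.7 and 54.6 in the aged caerulein mice. It rose by 0.98 ± 0.12 (edgeR adjusted p = 3.5e-05) and 1.42 ± 0.14 (edgeR adjusted p = 8.6e-06), with treated and untreated values apart at both ages.

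The other 3 laminin chains among the members did not pass the test with all libraries. Fold changes at 7 weeks and 18 months were -0.53 ± 0.21 and -0.09 ± 0.25 for Lama4, an alpha chain of vessels, -0.36 ± 0.20 and -0.35 ± 0.23 for Lamb1, and -0.41 ± 0.18 and -0.18 ± 0.20 for Lamb2. In some alternatives Lama4 was called lower at 7 weeks, among them DESeq2 (-0.59, adjusted p = 0.0394) and the stricter filter (-0.62, edgeR adjusted p = 0.0285). Lamb2 was called lower at 7 weeks with DESeq2 size factors, the stricter filter or without young caerulein mouse 1 (edgeR adjusted p = 0.0493, 0.0457 and 0.0333). Per kilobase, Lamc1 was 2.99, 2.37 and 2.59 times Lamb1 in the young untreated mice, 7.43, 6.14 and 6.31 times in the young caerulein mice, 2.59 and 1.80 times in the aged untreated mice and 7.04, 10.1 and 6.02 times in the aged caerulein mice. Lama5 over Lama4 was 2.85, 1.63 and 2.20 in the young untreated mice, 8.04, 5.77 and 6.29 in the young caerulein mice, 4.62 and 4.94 in the aged untreated mice and 11.4, 9.58 and 7.88 in the aged caerulein mice. Neither ratio overlapped between treated and untreated mice of an age. Each ratio sets a chain called higher over 1 with negative changes, so it restates those changes, and neither was tested.

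Nid2, which encodes nidogen 2, a linker between laminin and collagen IV, had 4.05, 5.36 and 5.06 in the young untreated mice, 0.784, 1.98 and 1.51 in the young caerulein mice, 4.20 and 2.76 in the aged untreated mice and 2.90, 1.46 and 2.61 in the aged caerulein mice. All young caerulein values lay under the young untreated ones and the aged groups overlapped. Its change was -1.76 ± 0.37 at 7 weeks (edgeR adjusted p = 0.0021) and -0.57 ± 0.40 at 18 months (edgeR adjusted p = 0.265). Its exons share 437 bases with Rtraf on the opposite strand, so the source of reads there cannot be told apart. Nid1, the other nidogen, changed by -0.27 ± 0.13 and -0.02 ± 0.14 and was not called with all libraries.

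Col15a1, a collagen of the outer face of basement membranes, had 16.2, 17.2 and 13.8 in the young untreated mice, 7.49, 8.30 and 10.2 in the young caerulein mice, 13.8 and 11.4 in the aged untreated mice and 7.22, 5.46 and 8.83 in the aged caerulein mice. Treated and untreated values stood apart at both ages, and the gene fell by 0.87 ± 0.19 (edgeR adjusted p = 0.00257) and 0.81 ± 0.21 (edgeR adjusted p = 0.00784). The aged call was lost without aged untreated mouse 2 (adjusted p = 0.0891), and both were lost with library totals alone (-0.39 and -0.19, adjusted p = 0.282 and 0.661). Hspg2, which encodes perlecan, had 46.2, 49.00 and 39.3 in the young untreated mice, 34.2, 28.3 and 31.9 in the young caerulein mice, 36.5 and 38.5 in the aged untreated mice and 24.1, 29.9 and 32.2 in the aged caerulein mice. Its groups did not overlap at either age, and its change was -0.51 ± 0.14 at 7 weeks (edgeR adjusted p = 0.00875) and -0.39 ± 0.15 at 18 months (edgeR adjusted p = 0.0547). The aged change was called without young untreated mouse 2 (-0.45 ± 0.14, edgeR adjusted p = 0.0108) and in 7 other alternatives. The young value was -0.03 with library totals alone (adjusted p = 0.928) and 0.29 with mouse 2 left out as well. Col18a1, the source of the endostatin fragment, changed by 0.30 ± 0.20 and 0.32 ± 0.24 and was not called.

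Set against each other within a library, where library scaling cancels, collagen IV and the fibrillar collagens moved apart. The summed per-kilobase level of Col4a1 and Col4a2 over that of Col1a1, Col1a2 and Col3a1 was 0.799, 0.671 and 0.605 in the young untreated mice, 2.70, 2.32 and 4.57 in the young caerulein mice, 0.699 and 1.13 in the aged untreated mice and 3.12, 5.04 and 2.16 in the aged caerulein mice. All 6 treated libraries lay above all 5 untreated ones, including young untreated mouse 2. These ratios were chosen after the values were seen and were not tested.

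**Figure D3:**
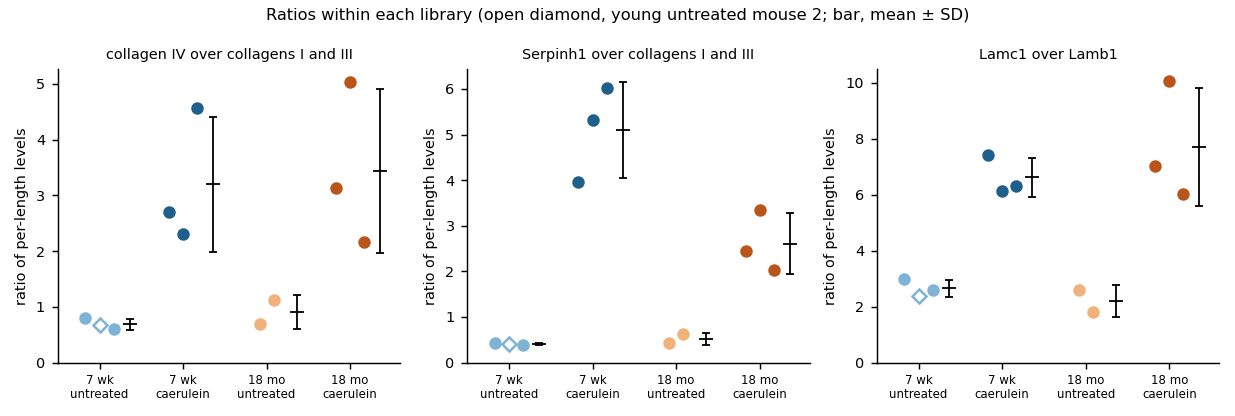
Ratios of per-kilobase levels within each library (y axis) by group (x axis): collagen IV over collagens I and III, Serpinh1 over collagens I and III, and Lamc1 over Lamb1; bars give mean ± SD and the open diamond is young untreated mouse 2. Treated libraries start at 2.16 in the first panel, where no untreated library exceeds 1.13.

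Adhesive and elastic fibre glycoproteins showed 1 call with all libraries and 1 without young untreated mouse 2, both for Fbn1 at 18 months. Fbn1, which encodes fibrillin 1 of elastic microfibrils, had 9.78, 8.59 and 13.6 in the young untreated mice, 11.5, 10.1 and 9.56 in the young caerulein mice, 9.49 and 6.88 in the aged untreated mice and 10.6, 12.5 and 14.8 in the aged caerulein mice. The aged groups stood apart and the young groups overlapped, with changes of -0.03 ± 0.20 and 0.63 ± 0.23 (edgeR adjusted p = 0.897 and 0.0398). That call was lost without aged untreated mouse 3, young caerulein mouse 2 or 3, or aged caerulein mouse 2 or 3 (adjusted p from 0.0515 to 0.300), and with DESeq2 (0.0627), DESeq2 size factors (0.0634), the stricter filter (0.0541), the 50 most abundant genes left out (0.0644) or a replicate block (0.0586). Its exons share 2442 bases with Gm9913 on the opposite strand.

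Fn1, fibronectin, had 21.2, 65.3 and 34.1 in the young untreated mice, 18.1, 29.2 and 6.81 in the young caerulein mice, 23.02 and 13.7 in the aged untreated mice and 25.4, 21.8 and 20.5 in the aged caerulein mice. Eln, elastin, had 4.89, 16.99 and 4.95 in the young untreated mice, 14.3, 5.69 and 6.03 in the young caerulein mice, 3.36 and 2.33 in the aged untreated mice and 2.60, 2.68 and 3.83 in the aged caerulein mice. Postn, periostin of activated fibroblasts, had 1.52, 9.59 and 2.36 in the young untreated mice, 1.44, 1.86 and 0.572 in the young caerulein mice, 1.60 and 0.921 in the aged untreated mice and 0.496, 0.244 and 1.17 in the aged caerulein mice. In all 3 genes young untreated mouse 2 was the highest library, and treated and untreated groups overlapped at both ages. The 7-week changes were -1.15 ± 0.48 for Fn1, -0.06 ± 0.49 for Eln and -1.80 ± 0.72 for Postn (edgeR adjusted p = 0.0621, 0.936 and 0.055), and without mouse 2 they were -0.66 ± 0.39, 0.77 ± 0.36 and -0.62 ± 0.55. In some alternatives that kept mouse 2, Fn1 was called lower at 7 weeks, among them the stricter filter (-1.25, edgeR adjusted p = 0.0415). Postn was called lower there too, among others with DESeq2 (-1.84, adjusted p = 0.0217) and the stricter filter (-1.89, edgeR adjusted p = 0.0375). Fbln1, fibulin 1, had 4.67, 6.75 and 5.18 in the young untreated mice, 3.66, 4.15 and 1.04 in the young caerulein mice, 4.54 and 2.65 in the aged untreated mice and 3.02, 2.19 and 2.94 in the aged caerulein mice. Its young groups did not overlap but its changes, -0.90 ± 0.41 and -0.39 ± 0.47, were not called (edgeR adjusted p = 0.0893 and 0.533). With no filter on low counts the young fall was called (-0.86, edgeR adjusted p = 0.0405).

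Of SPARC and the small leucine-rich proteoglycans, which bind collagen and tune fibril assembly, 2 of 4 were lower at 7 weeks and none was called at 18 months with all libraries. Without young untreated mouse 2 the counts were 2 and 1, the latter being Sparc. Lum, lumican, had 5.00, 9.15 and 5.75 in the young untreated mice, 1.57, 1.03 and 0.676 in the young caerulein mice, 5.46 and 2.55 in the aged untreated mice and 1.64, 0.975 and 3.94 in the aged caerulein mice. Every young treated value was below the untreated ones, and the aged groups overlapped. Its change was -2.59 ± 0.53 at 7 weeks (edgeR adjusted p = 0.00179) and -0.87 ± 0.56 at 18 months (edgeR adjusted p = 0.225). The difference between the responses, 1.73 ± 0.77, was not called (edgeR adjusted p = 0.394).

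Sparc, a collagen-binding glycoprotein of stromal cells, had 50.02, 88.5 and 46.8 in the young untreated mice, 37.8, 33.5 and 32.6 in the young caerulein mice, 30.8 and 26.2 in the aged untreated mice and 18.3, 13.8 and 22.4 in the aged caerulein mice. Treated values lay below untreated values at both ages, and aged values below young ones within each treatment. It changed by -0.84 ± 0.24 at 7 weeks (edgeR adjusted p = 0.013) and -0.65 ± 0.27 at 18 months (edgeR adjusted p = 0.0681). Without young untreated mouse 2 the aged change was -0.71 ± 0.16 (edgeR adjusted p = 0.00185), and it was also called in 8 other alternatives, among them DESeq2 (-0.71, adjusted p = 0.0244). The young value was -0.42 with library totals alone (adjusted p = 0.381) and 0.25 with mouse 2 left out as well. Dcn, decorin, had 58.2, 77.3 and 67.4 in the young untreated mice, 63.7, 75.9 and 42.6 in the young caerulein mice, 81.2 and 68.9 in the aged untreated mice and 63.2, 64.3 and 58.9 in the aged caerulein mice, and Bgn, biglycan, had 18.9, 43.8 and 17.6 in the young untreated mice, 19.7, 7.35 and 7.90 in the young caerulein mice, 18.9 and 16.4 in the aged untreated mice and 6.87, 7.70 and 16.8 in the aged caerulein mice. With all libraries neither was called, with changes of -0.16 ± 0.19 and -0.27 ± 0.21 for Dcn and -1.20 ± 0.47 and -0.76 ± 0.53 for Bgn. In some alternatives Bgn was called lower at 7 weeks, among them DESeq2 (-1.25, adjusted p = 0.012) and the stricter filter (-1.29, edgeR adjusted p = 0.0384). At 18 months it was called lower with no filter (-0.73, edgeR adjusted p = 0.0369) and with only the groups compared (-0.86, edgeR adjusted p = 0.0351). The latter fit also called Dcn lower at 18 months (-0.36, edgeR adjusted p = 0.0175). Per kilobase, Dcn at 12.9 was the highest member in the aged untreated group, whereas Sparc at 16.3 led the young untreated group.

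Of the collagen folding and cross-linking genes, 4 of 6 (Serpinh1, P4ha1, Lox and Loxl1) were higher at each age and none was lower, with medians of 0.98 and 0.89. Of all genes tested, 27.5% were called higher at 7 weeks and 27% at 18 months. The same count of 4 held without young untreated mouse 2, where 30.8% and 30.7% of all genes were called higher. It also held with library totals alone, but that scaling moves changes upward. It called 5314 and 5451 of all 14113 genes higher, so it is no check on these rises.

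Serpinh1 encodes HSP47, the collagen-specific chaperone of the endoplasmic reticulum. The gene lies on the minus strand at chr7:99345376-99353239. The 250 bases before its annotated start in RefSeq (chr7:99353240-99353489 on GRCm38.p6, the assembly of mm10) are shown with those of Timp1 (chrX:20869916-20870165, plus strand) and Lama5 (chr2:180225860-180226109, minus strand), since these 3 genes of different roles rose together. Capitals mark GGGCGG or its reverse complement CCGCCC, the letters of a GC box, and CCAAT or its reverse complement ATTGG.
Serpinh1: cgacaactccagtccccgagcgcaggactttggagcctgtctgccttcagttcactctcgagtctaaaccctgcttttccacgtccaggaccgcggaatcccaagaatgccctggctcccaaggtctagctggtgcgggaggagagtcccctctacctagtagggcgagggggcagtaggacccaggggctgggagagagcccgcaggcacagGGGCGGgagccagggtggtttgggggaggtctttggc
Timp1: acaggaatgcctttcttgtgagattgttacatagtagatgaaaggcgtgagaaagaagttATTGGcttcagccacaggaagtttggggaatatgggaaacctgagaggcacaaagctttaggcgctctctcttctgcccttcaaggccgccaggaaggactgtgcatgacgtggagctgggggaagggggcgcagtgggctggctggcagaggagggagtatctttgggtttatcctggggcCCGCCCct
Lama5: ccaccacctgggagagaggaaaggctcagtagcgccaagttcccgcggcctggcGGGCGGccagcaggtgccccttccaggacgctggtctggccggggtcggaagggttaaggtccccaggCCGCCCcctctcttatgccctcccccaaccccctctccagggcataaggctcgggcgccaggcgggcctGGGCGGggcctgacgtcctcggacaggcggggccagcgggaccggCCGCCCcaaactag
Promoter windows of 250 bases before to 50 after the start were at hand for 28 of the 41 members. GGGCGG occurred in 21 of the 28 and in 68.8% of their 32 windows, against 35.7% of all 32851 windows. CCAAT occurred in 10 members, 31.2% of windows against 37.4%, and TATAAA in 4 (Col3a1, P4ha1, Plod1 and Postn), 12.5% against 13.6%. The heat shock element letters GAANNTTC were found in Plod1 alone (3.12% against 7.86%) and the AP-1 letters TGACTCA in Col6a1 alone (3.12% against 5.2%). TGACGTCA and the serum response CArG box occurred in no member window, against 1.79% and 1.63% of all windows. All motifs were read on both strands and describe letters in 1 short window.

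Serpinh1 levels were 13.6, 19.1 and 14.7 in the young untreated mice, 73.5, 100.2 and 76.8 in the young caerulein mice, 11.5 and 9.53 in the aged untreated mice and 28.4, 24.9 and 36.4 in the aged caerulein mice. All treated values exceeded all untreated ones, and the young treated values exceeded the aged treated ones. It rose by 2.40 ± 0.19 at 7 weeks (edgeR adjusted p = 2.2e-06) and by 1.51 ± 0.23 at 18 months (edgeR adjusted p = 0.00023). Per kilobase its mean was 6.47 in the young untreated, 34.2 in the young caerulein, 4.31 in the aged untreated and 12.2 in the aged caerulein mice, the highest of the members in both treated groups but not in the untreated ones. Relative to the summed collagen I and III chains it stood at 0.434, 0.407 and 0.393 in the young untreated mice, 3.96, 5.31 and 6.02 in the young caerulein mice, 0.427 and 0.618 in the aged untreated mice and 2.44, 3.35 and 2.03 in the aged caerulein mice. That ratio sets a gene that rose against chains that mostly fell, and it was not tested.

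Lox, a lysyl oxidase that starts cross-linking of collagen and elastin, had 0.843, 1.60 and 0.575 in the young untreated mice, 9.15, 9.29 and 8.37 in the young caerulein mice, 1.93 and 1.14 in the aged untreated mice and 4.81, 3.12 and 3.22 in the aged caerulein mice. Treated and untreated values were apart at both ages. It rose by 3.11 ± 0.35 at 7 weeks (edgeR adjusted p = 2.9e-05) and 1.30 ± 0.40 at 18 months (edgeR adjusted p = 0.019), the aged call being lost without aged untreated mouse 3 or aged caerulein mouse 1 (adjusted p = 0.178 and 0.0669). Loxl1, which acts mainly on elastin, had 3.43, 3.52 and 5.29 in the young untreated mice, 9.89, 11.9 and 11.5 in the young caerulein mice, 4.28 and 3.47 in the aged untreated mice and 8.13, 9.94 and 9.21 in the aged caerulein mice. No group overlapped its counterpart, and the rises were 1.45 ± 0.19 and 1.24 ± 0.22 (edgeR adjusted p = 8.4e-05 and 0.00084).

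P4ha1, the catalytic subunit of a collagen prolyl 4-hydroxylase, had 6.01, 7.71 and 6.85 in the young untreated mice, 8.36, 10.9 and 10.2 in the young caerulein mice, 5.97 and 6.88 in the aged untreated mice and 8.86, 9.11 and 10.4 in the aged caerulein mice. It rose by 0.52 ± 0.15 at 7 weeks and 0.55 ± 0.17 at 18 months (edgeR adjusted p = 0.0146 and 0.0221), with treated and untreated values apart at both ages. The young call was lost without young untreated mouse 1 or young caerulein mouse 2, and the aged call without aged untreated mouse 2 or aged caerulein mouse 3 (adjusted p from 0.0580 to 0.142). The young call was also lost with only the groups compared (edgeR adjusted p = 0.0545). The aged call was also lost with DESeq2 (adjusted p = 0.0547) and with no filter on low counts (edgeR adjusted p = 0.0524). Plod1, a lysyl hydroxylase, had 7.31, 10.9 and 8.34 in the young untreated mice, 8.02, 7.39 and 7.54 in the young caerulein mice, 11.6 and 6.28 in the aged untreated mice and 7.41, 6.87 and 8.38 in the aged caerulein mice. Its groups overlapped, and its changes were -0.22 ± 0.22 and -0.23 ± 0.25. Loxl2, a further lysyl oxidase, ran from 1.09 to 2.52 over all libraries, with changes of -0.09 ± 0.34 and 0.11 ± 0.40, neither called.

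**Figure D4:**
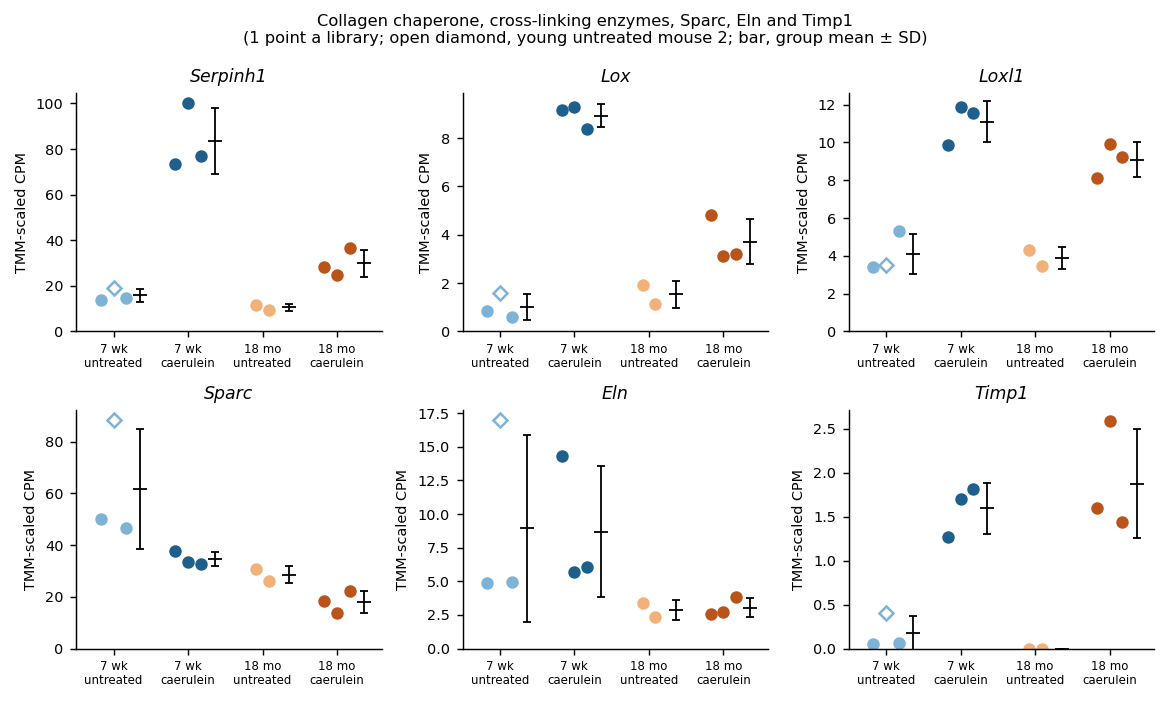
TMM-scaled CPM (y axis) in each library by group (x axis) for Serpinh1, Lox, Loxl1, Sparc, Eln and Timp1; bars give mean ± SD and the open diamond is young untreated mouse 2. Aged caerulein values of Serpinh1 and Lox lie between the untreated values and the young caerulein values, and Timp1 is at 0 in both aged untreated libraries.

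Among proteases, inhibitors and Tgfb1, the calls with all libraries were Timp1 higher at both ages, Timp2 lower at 7 weeks and Mmp2 lower at 18 months. Leaving out young untreated mouse 2, 3 of the 6 were higher and 1 lower at each age. Timp1, a secreted inhibitor of metalloproteinases, lies at chrX:20870166-20874735 on the plus strand, inside an intron of Syn1 on the opposite strand. Its levels were 0.0562, 0.400 and 0.0575 in the young untreated mice, 1.26, 1.70 and 1.82 in the young caerulein mice, 0 and 0 in the aged untreated mice and 1.60, 2.58 and 1.44 in the aged caerulein mice. Treated libraries lay above untreated ones at both ages. At 7 weeks the change was 3.06 ± 0.64 (edgeR adjusted p = 0.00259), and without mouse 2 the ratio of levels rested on 2 untreated reads and was 27.9 (exact 95% counting interval 7.53 to 233). The 2 aged untreated libraries held 0 reads and the 3 aged treated libraries 121, so the treated level was at least 18.9-fold higher, taking 3 counts over the untreated group as the floor. Intervals and floors cover counting error only.

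Timp2, an inhibitor that also takes part in activating Mmp2, had 28.7, 45.04 and 33.2 in the young untreated mice, 21.04, 29.4 and 11.1 in the young caerulein mice, 31.6 and 25.9 in the aged untreated mice and 23.1, 23.5 and 25.8 in the aged caerulein mice. Timp3, an inhibitor bound to the matrix, had 19.95, 30.3 and 21.5 in the young untreated mice, 33.6, 28.5 and 28.95 in the young caerulein mice, 18.4 and 18.5 in the aged untreated mice and 27.2, 20.95 and 31.9 in the aged caerulein mice. Timp2 fell by 0.79 ± 0.29 at 7 weeks (edgeR adjusted p = 0.0364) although its young groups overlapped, and its aged change of -0.25 ± 0.32 was not called. The Timp2 call was lost without aged untreated mouse 2 or 3, young caerulein mouse 1 or 3, or aged caerulein mouse 2 (adjusted p from 0.0509 to 0.0812), and with library totals alone (-0.34, adjusted p = 0.493), the value being 0.15 with young untreated mouse 2 left out as well. With only the groups compared the young call was also lost (-0.82, edgeR adjusted p = 0.0868), while the aged fall was called (-0.34, edgeR adjusted p = 0.0331). Timp3 was not called with all libraries and was called higher at both ages without mouse 2, at 0.50 ± 0.15 and 0.46 ± 0.16 (edgeR adjusted p = 0.0121 and 0.0201), against 0.34 ± 0.18 and 0.53 ± 0.21 with it. Its exons share 1733 bases with Syn3 on the opposite strand.

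Mmp2, gelatinase A, had 5.06, 7.07 and 7.31 in the young untreated mice, 5.14, 3.79 and 3.69 in the young caerulein mice, 7.73 and 6.28 in the aged untreated mice and 3.05, 2.97 and 5.00 in the aged caerulein mice. The aged groups stood apart and the young groups overlapped, with changes of -0.62 ± 0.25 and -0.93 ± 0.28 (edgeR adjusted p = 0.0536 and 0.0159). The aged call was lost without aged untreated mouse 2 or aged caerulein mouse 1 or 2 (adjusted p = 0.135, 0.0558 and 0.0571), and with library totals alone (-0.30, adjusted p = 0.567). In some alternatives Mmp2 was called lower at 7 weeks, among them DESeq2 (-0.67, adjusted p = 0.0350) and the stricter filter (-0.70, edgeR adjusted p = 0.0337). Mmp14, the membrane-anchored protease that activates pro-Mmp2, had 3.37, 9.19 and 4.37 in the young untreated mice, 7.36, 7.19 and 6.71 in the young caerulein mice, 7.06 and 3.79 in the aged untreated mice and 5.46, 7.80 and 6.16 in the aged caerulein mice. With all libraries its young change was 0.32 ± 0.34 (edgeR adjusted p = 0.457), and without mouse 2 it was 0.82 ± 0.25 (edgeR adjusted p = 0.0119).

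Tgfb1, a ligand that drives matrix production in fibroblasts, had 2.75, 21.5 and 3.39 in the young untreated mice, 6.23, 4.58 and 3.85 in the young caerulein mice, 2.35 and 2.17 in the aged untreated mice and 4.09, 6.09 and 6.83 in the aged caerulein mice. Mouse 2 was the highest of all libraries, and all other untreated libraries lay below all treated ones. The young change was -0.93 ± 0.63 with mouse 2 and 0.62 ± 0.27 without it (edgeR adjusted p = 0.233 and 0.0676), so that the sign turned with that library. The aged change was 1.32 ± 0.78 (edgeR adjusted p = 0.186) with all libraries and 1.26 ± 0.29 (edgeR adjusted p = 0.00213) without mouse 2, which here enters the filter, the scaling and the spread. Which cells gave the Tgfb1 reads of mouse 2 was not tested; its macrophage and lymphoid marker sums are given above.

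Without treatment, no member differed by age after adjustment, but most stood lower in the aged mice. The share of all genes called was 0.0567% higher and 0.0354% lower, and the smallest adjusted p of a member was 0.317 for Col4a1 in edgeR. At an unadjusted p below 0.05, 1 member was higher and 12 were lower, where 1320 of all 14113 genes passed in either direction. DESeq2 called Col4a1 and Sparc lower, where it called 36 of all genes higher and 27 lower. In 37 of the 41 the fold change was negative, with a median of -0.46, where 53.9% of all genes were negative and their median was -0.03. Library totals alone shifted the median of all genes by -0.233, and that of the members was then -0.71 with 2 fold changes positive. For 21 members all aged values lay below all young values, 51.2% of the members, where 10.8% of all genes did so; for 1, Lama5, all lay above, where 12.4% of all genes did. Without mouse 2, where 0.258% and 0.147% of all genes were called higher and lower, no member was called. These counts of members without overlap were then 23 (56.1%) and 3 (7.32%), against 20.1% and 20.9% of all genes, and 34 fold changes were negative.

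Some cell marker sums were lower without overlap in the same comparison. Summed stellate cell and fibroblast markers ran from 58.4 to 70.9 CPM in the aged untreated mice against 74.8 to 178 in the young. Summed mural markers ran from 24.3 to 26.5 against 28.3 to 75.8. By library totals the stellate cell and fibroblast sums overlapped, at 56.6 and 40.6 in the aged and 56.3, 201 and 58.2 in the young mice. Sums of endothelial, mesothelial, Schwann cell, macrophage, adipocyte, lymphoid and acinar markers overlapped between the aged and young untreated mice. No single one of the 13 stellate cell and fibroblast and 8 mural markers tested was called. The part of cell markers in the result was not tested.

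Fibrillar chains were all among the 21 members without overlap. Col3a1 was 36.2 ± 14.4 (mean ± SD, n = 2) against 71.4 ± 10.7 (n = 3), a change of -0.98 ± 0.33. Col1a1 changed by -0.85 ± 0.44, Col1a2 by -0.70 ± 0.37, Col5a1 by -0.68 ± 0.39 and Col5a2 by -0.79 ± 0.35. Col4a1 changed by -0.65 ± 0.16 (edgeR adjusted p = 0.317, 0.186 without mouse 2), Sparc by -1.12 ± 0.28 (0.324 and 0.116), and Lama5 by 0.40 ± 0.14 (0.531 and 0.44). The group had 2 aged untreated mice, and a p that misses the threshold does not show that levels were alike.

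After caerulein, Serpinh1 was the member called between the ages, lower in the aged mice. All genes were called higher at 2.46% and lower at 1.27%. Serpinh1 differed by -1.48 ± 0.19 (edgeR adjusted p = 0.00267), with aged treated values of 28.4, 24.9 and 36.4 CPM under young treated values of 73.5, 100.2 and 76.8. Over every alternative fit the difference ran from -1.65 to -1.33 and was called in each. Mouse 2 of the young untreated group has no place in this contrast, but it enters the filter, the scaling and the shared estimate of spread. Leaving it out added Lox, Sparc, Eln, Col4a1 and Col4a2, for 6 members lower and none higher, 14.6% of the members, where 6.31% of all genes were called lower and 7.85% higher.

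These genes include a cross-linking enzyme, a collagen-binding glycoprotein, elastin and both collagen IV chains. Lox was -1.28 ± 0.21 (edgeR adjusted p = 0.00116, against 0.0565 with all libraries), Sparc was -0.96 ± 0.14 (0.0007 against 0.0625) and Eln was -1.55 ± 0.33 (0.00643 against 0.142). Col4a1 was -0.46 ± 0.10 (0.00675 against 0.113) and Col4a2 was -0.46 ± 0.13 (0.0355 against 0.188). Aged and young treated values did not overlap for these 6 or for Nid1, 7 members or 17.1% in all, where 13.6% of all genes had lower and 17.3% higher aged values without overlap. In the authors' deposited table of this comparison, whose per-library columns are those of the 6 treated mice, 6 members were lower at an adjusted p below 0.05 and none was higher, with Serpinh1 at -1.50 and Lox at -1.28. The share of all genes in that table was not counted.

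**Figure D5:**
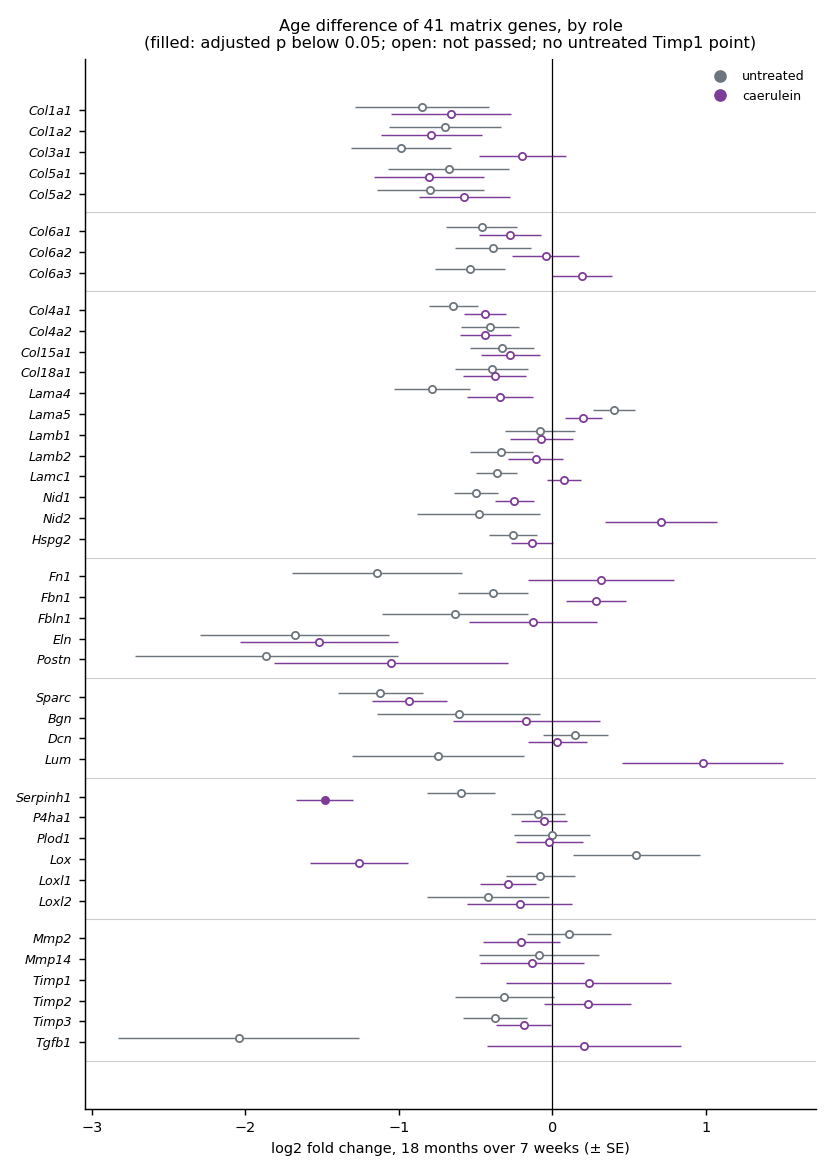
Log2 fold change ± SE of 18 months over 7 weeks (x axis) for each of the 41 genes (y axis, grouped by role), without treatment (grey) and after caerulein (purple); filled points have an adjusted p below 0.05. Serpinh1 after caerulein is the filled point, most grey points lie left of 0, and Timp1 has no grey point because the aged untreated libraries held no read.

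The response to caerulein was compared between the ages as a difference of the 2 fold changes, 18 months minus 7 weeks. No member was called with all libraries, where 0.00709% of all genes were called in each direction. At an unadjusted p below 0.05, 6 members had a higher and 2 a lower response at 18 months, where 1758 of all 14113 genes passed in either direction. DESeq2 called Lox lower, where it called 179 of all genes higher and 100 lower. For Lox the difference was -1.81 ± 0.52 (edgeR adjusted p = 0.204) and for Serpinh1 -0.89 ± 0.28 (edgeR adjusted p = 0.261). Without mouse 2, where 0.811% of all genes were called lower and 1.48% higher, both were called, at -2.32 ± 0.43 (edgeR adjusted p = 0.0186) and -1.06 ± 0.25 (edgeR adjusted p = 0.0455). The response of Lox was 3.59 ± 0.31 at 7 weeks and 1.27 ± 0.29 at 18 months in that fit, and that of Serpinh1 2.51 ± 0.18 and 1.45 ± 0.19. For Col4a1 the difference was 0.21 ± 0.21 and for Col1a2 -0.09 ± 0.49, neither called.

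The wider matrix lists are read against the shares of all genes called, 27.5% higher and 24.7% lower at 7 weeks and 27% and 21.2% at 18 months, and against 30.8%, 26.8%, 30.7% and 27.6% where young untreated mouse 2 was left out. Nothing particular to a list was tested. Of 18 other collagen chains tested, none was higher and 5 were lower at 7 weeks, and 2 were higher and 4 lower at 18 months. Without mouse 2, 16 were tested, with 1 and 3, and 2 and 4. Of 16 other laminins and basement membrane genes, 4 and 5 were higher and lower at 7 weeks and 3 and 4 at 18 months (4 and 7, and 3 and 8, without mouse 2). Smoc1 and Tinagl1, secreted basement membrane glycoproteins, rose at both ages (log2 1.80 and 1.17, 1.64 and 1.66), while Ntn4, a laminin-related netrin, fell (-0.84 and -1.02), as did Nphs1, which encodes nephrin (-0.87 and -1.14).

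Among 32 other glycoproteins and proteoglycans, 7 were higher and 5 lower at 7 weeks, and 7 and 3 at 18 months (8 and 7, and 11 and 5, of 30 without mouse 2). Thbs1, thrombospondin 1, which can release active TGF-beta from its latent form, went from 5.75 ± 1.20 to 114 ± 24.5 CPM (mean ± SD) in the young mice and from 5.92 ± 1.59 to 89.1 ± 3.26 in the aged mice (4.30 and 3.90, edgeR adjusted p = 9.1e-08 and 7.9e-07). Ccn1, a matricellular protein listed under its older symbol Cyr61, rose by 3.33 and 3.90, and Vcan, the proteoglycan versican, by 1.98 and 2.16. Prelp, a leucine-rich repeat protein that anchors basement membranes, fell (-0.51 and -0.73).

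The 25 other collagen-processing genes split, with 4 higher and 6 lower at 7 weeks and 6 and 4 at 18 months (6 and 8, and 6 and 5, of 24 without mouse 2). P4ha2, a second prolyl 4-hydroxylase subunit, rose by 2.80 and 1.68, and Plod3, a lysyl hydroxylase, by 1.53 and 1.92. Against these, Ppib, a prolyl isomerase of the endoplasmic reticulum, changed by -1.24 and -1.27, Pcolce, an enhancer of procollagen cleavage, by -1.11 and -0.92, and Fkbp9, another isomerase, went from 27.3 ± 4.15 to 13.6 ± 0.582 CPM in the young mice and from 28.3 ± 5.35 to 14.8 ± 1.59 in the aged mice. All of these passed the test at both ages.

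Of 26 other proteases and inhibitors, 12 were higher and 1 lower at 7 weeks and 10 and 3 at 18 months (13 and 0, and 10 and 3, of 24 without mouse 2). Plaur, the urokinase receptor, rose by 2.36 and 3.84, and Ctsl, a lysosomal protease, by 1.57 and 2.02. Of 23 TGF-beta signalling genes 13 were higher and 1 lower at each age (14 and 1 of 22 without mouse 2). Tgif1, a repressor of SMAD targets, rose by 3.45 and 4.41, Inhbb, an activin subunit, by 2.35 and 3.03, and Pmepa1, a feedback inhibitor, by 2.18 and 2.33. Of 26 matrix receptors 11 were higher and 5 lower at 7 weeks and 11 and 1 at 18 months (11 and 3, and 11 and 1, of 25 without mouse 2). Itga6, a laminin receptor subunit, changed by 2.33 and 3.06, Ddr1, a collagen receptor kinase, by 2.37 and 2.92, and Cd44, the hyaluronan receptor, by 1.83 and 3.23.

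In the authors' deposited tables the members at an adjusted p below 0.05 were 8 higher and 14 lower for caerulein at 7 weeks, 11 higher and 7 lower at 18 months, and none for age without treatment. Shares of all genes in those tables were not counted, so these counts show nothing particular to the members.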

How the data were processed

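Libraries of polyadenylated RNA from whole pancreas were processed by the authors; the submitters' processing notes name HISAT2 2.0.5, featureCounts 1.5.0-p3 and mm10. Strand setting, annotation release and filters: not given in the sources used here. A deposited table holds whole-number read counts per gene, and the authors' deposited comparison tables hold log2 fold changes and adjusted p-values. A deposited FPKM table was not used, nor were 66 columns of the comparison tables named after the same libraries.

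Counts were filtered with filterByExpr over the 4 groups, scaled by TMM and tested by edgeR 4.0.16 quasi-likelihood F tests (R 4.3.3), with 1 model of 4 groups over 11 libraries and Benjamini-Hochberg adjustment over 14113 genes. An SE is the fold change over the root of F. CPM uses TMM-scaled totals, and per-kilobase levels divide CPM by the deposited gene length. Total counts of 14223190 to 26537091 limit low genes such as Timp1. The script was tested on simulated data. Alternatives were DESeq2 1.42.0 or its size factors, library totals, no or a stricter low-count filter, a fit of the compared groups alone, omission of the 50 most abundant genes, a replicate block, each library left out, and young untreated mouse 2 left out with library totals. Promoter windows come from RefSeq on GRCm38.p6 and exon overlaps from GENCODE vM21.

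Members and gene lists were chosen with earlier results of these data known. Values in every library are given, per role, for up to 5 members with the smallest p in a caerulein comparison, the member with the highest per-kilobase level, and every member called by age or between responses. Other members are given by range or fold change. From the wider lists up to 3 genes a direction are named that were called at both ages, did not overlap, and reached a mean of 5 CPM; some that met this rule are not reported here. The labels do not say whether mice were littermates, so p-values measure the spread between these mice.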

Additional observations from a re-analysis of the deposited data

Results flagged for a closer look

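The responses of Serpinh1 and Lox to caerulein differed between the ages in a test of that difference once young untreated mouse 2 was left out. The response at 18 months minus that at 7 weeks was -1.06 for Serpinh1 (edgeR adjusted p = 0.0455) and -2.32 for Lox (edgeR adjusted p = 0.0186). With all 11 libraries the differences were -0.89 ± 0.28 (edgeR adjusted p = 0.261) and -1.81 ± 0.52 (edgeR adjusted p = 0.204). Over the alternatives the adjusted p ran from 0.0347 to 0.692 for Serpinh1 and from 0.0182 to 0.679 for Lox, and the sign was negative in each.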

How the results depend on the processing

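Of the members called with all libraries, none changed sign under any single alternative. Of the 41 members, library totals alone raised the number with a positive change from 13 to 22 at 7 weeks and from 19 to 32 at 18 months, and Tgfb1, Eln and Loxl2, none of them called, turned positive at 7 weeks without young untreated mouse 2. With both choices together, at 7 weeks Col6a1 was 0.063, Nid1 0.46, Hspg2 0.29, Eln 1.56, Sparc 0.25, Dcn 0.69, Plod1 0.70, Timp2 0.15 and Tgfb1 1.41, and at 18 months Nid1 was 0.60. That fit called 18 members higher and 2 lower at 7 weeks, 17 and 0 at 18 months, 6 lower for age after caerulein and 1 lower for the response difference. All-gene counts of that fit are not reported here, so its member counts show nothing particular to the members. Library totals alone, with every library kept, called 5314 of all genes higher and 1269 lower at 7 weeks, and 5451 and 1074 at 18 months. That scaling shifts the all-gene median up in the caerulein comparisons and down in both age comparisons.

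Members called lower at 7 weeks (12) were 2 with library totals alone and 19 with a stricter filter, and 7 to 17 with 1 library left out (7 without young caerulein mouse 3). Those called higher were 8 to 11. At 18 months the 4 called lower were 0 with library totals alone, 7 with DESeq2, 7 with no filter, 11 with only the groups compared and 0 to 10 with 1 library left out (0 without aged untreated mouse 2, 10 without aged caerulein mouse 3, 2 without aged caerulein mouse 1 or 2, 8 without young untreated mouse 2). Those called higher were 8 to 12. For age without treatment DESeq2 called 2 lower and no filter 7, against 0. After caerulein the 1 called lower was 5 with DESeq2, 5 with no filter, 2 with a stricter filter, 3 with the 50 most abundant genes left out, 5 with only the groups compared, and 1 to 6 with 1 library left out (6 without young untreated mouse 2, 3 without young untreated mouse 3, 2 without aged caerulein mouse 3). For the response difference no filter called 2 higher and 2 lower, DESeq2 1 lower, and leaving out 1 library 0 to 2. Of all genes, 3488 of 14113 were called lower at 7 weeks, 1269 with library totals alone and 3391 of 11263 with the stricter filter. At 18 months 2998 were lower, 1074 with library totals alone, 3125 with DESeq2 and 2652 of 27020 with no filter. For age without treatment 5 were lower, 27 with DESeq2 and 635 with no filter. After caerulein 179 were lower, 323 with DESeq2, 307 with no filter and 272 with the stricter filter. In the response difference no filter called 547 of all 27020 genes higher and 127 lower, and DESeq2 100 of 14113 lower. All-gene counts under the other alternatives are not reported here. The cause of these shifts in member counts was not tested.

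With the mouse number as a replicate block, 9 members were higher and 13 lower at 7 weeks and 9 and 3 at 18 months. Col5a1 lost its calls (edgeR adjusted p = 0.0502 and 0.0708), as did Fbn1 at 18 months (0.0586). Same-numbered mice did not pair: their deviations correlated between -0.211 and 0.155 over 15 pairs. With no Timp1 read in the aged untreated libraries, its fitted fold at 18 months depends on the prior count and is not given.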

Other observations

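Collagen IV has further chains, which form the networks of specialised basement membranes, and none of these was called higher as Col4a1 and Col4a2 were. In the aged mice Col4a3 changed by -1.68, Col4a4 by -2.02 and Col4a5 by -1.30 (edgeR adjusted p = 0.0439, 0.0134 and 0.0112), and Col4a6 by -1.41 (edgeR adjusted p = 0.0858). In the young mice the same chains changed by -0.91, -0.69, -0.77 and -0.42, and none was called. Levels were low, with Col4a5 at 3.88 ± 0.813 CPM in the aged untreated mice and 1.55 ± 0.528 in the aged caerulein mice. Col6a6, a later collagen VI chain, fell at both ages (-1.85 and -1.99, edgeR adjusted p = 0.00968 and 0.0118), and Col14a1, a fibril-associated collagen, at 7 weeks (-1.81, edgeR adjusted p = 0.0012).

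Lamb3, a laminin beta chain of epithelia, was 22.6 ± 8.17 CPM in the young untreated mice, 47.9 ± 5.65 in the young caerulein mice, 15.1 ± 1.64 in the aged untreated mice and 15.97 ± 3.45 in the aged caerulein mice. Its change was 1.09 at 7 weeks (edgeR adjusted p = 0.00384) and 0.08 at 18 months (edgeR adjusted p = 0.847). These genes were chosen after their values were seen.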
